A study of Mus musculus with 62 samples.

Results

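Merging the H3K27ac peak lists of 4 mouse skeletal muscles gave 51588 regions, and 1072 of them carried a peak in both soleus (Sol) and diaphragm (Dia) and none in extensor digitorum longus (EDL) or quadriceps femoris (Quad). These 1072 members were selected on H3K27ac peak calls, with an overlap of 1 bp or more counted, so their H3K27ac in the 4 lists is a description and not a result. For scale, 3181 regions showed the mirror pattern (EDL and Quad without Sol or Dia), 19318 were called in all 4 muscles, 3158 in Sol alone and 3255 in Dia alone. The members are not regions absent from quadriceps as a tissue. Of the 1072, 582 (54.3%) overlapped an H3K27ac peak in at least 1 of 2 other sets of untreated quadriceps libraries of the same study, beside 75.2% of all merged regions and 83.6% of the mirror regions, so they are referred to here by the peak calls that chose them.

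All mice were male, with the strain given as C57BL/6, and the study's methods put purchased mice at 7 to 8 weeks of age. EDL, Sol, Dia and Quad libraries came from sedentary wild type mice. Further quadriceps libraries came from wild type mice given running wheels for 4 weeks from 8 weeks of age (Ex), taken 4 to 6 hours after their last bout, and their sedentary controls (Sed), and from sedentary PGC1a Tg(+) mice (mTg) and wild type littermates (Wt), whose age the sources used here do not give. The transgene expresses Pgc1a from the muscle creatine kinase promoter. Each Quad sample was 1 muscle of 1 animal, whereas EDL, Sol and Dia samples pooled muscles of 3 animals, and each histone mark had 2 replicates per group. The 16 H3K27ac libraries held 11658746 to 24195147 tags, with the mTg and Wt libraries between 11658746 and 14942618. MED1 and NFAT peaks came from 1 library per muscle, with muscles of several animals pooled, so they have no replicate. Muscle tissue was used whole, so fewer cells of a type and less of a mark per cell cannot be told apart.

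H3K27ac, acetylation of lysine 27 of histone H3, marks enhancers and promoters in use, and H3K4me2, dimethylation of lysine 4, marks enhancers and promoters whether or not they are in use. EDL and most of Quad consist of fast glycolytic myofibers that express fast isoforms of myosin, troponin and tropomyosin. Soleus holds many slow fibers and diaphragm is a mixed muscle that works continuously, and both are rich in mitochondria and rely on oxidative metabolism.

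The members near contractile genes included regions that held a transcription start, and the bases before 4 of these starts are shown because the loci described next turn on them. RefSeq sequence of GRCm38.p6 was used, which is the mm10 build of the deposited histone lists, and each run gives the 250 bases before the start, 5′ to 3′ on the strand of the gene. Myh7b was read at chr2:155610993-155611242 (plus strand), Tpm3 at chr3:90072401-90072650 (plus), Myl2 at chr5:122092939-122093188 (plus) and Myh7 at chr14:54994627-54994876 (minus). Capitals mark words searched on both strands.
Myh7b: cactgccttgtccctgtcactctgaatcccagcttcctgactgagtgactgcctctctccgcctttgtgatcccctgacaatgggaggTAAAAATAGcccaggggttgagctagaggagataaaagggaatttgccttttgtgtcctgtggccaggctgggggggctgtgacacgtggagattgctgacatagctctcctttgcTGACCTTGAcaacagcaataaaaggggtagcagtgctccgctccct
Tpm3: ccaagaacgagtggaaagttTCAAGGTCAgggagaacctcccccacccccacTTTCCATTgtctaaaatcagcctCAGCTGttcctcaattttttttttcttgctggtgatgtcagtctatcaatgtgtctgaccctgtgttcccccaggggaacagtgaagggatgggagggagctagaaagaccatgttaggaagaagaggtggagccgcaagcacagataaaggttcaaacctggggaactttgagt
Myl2: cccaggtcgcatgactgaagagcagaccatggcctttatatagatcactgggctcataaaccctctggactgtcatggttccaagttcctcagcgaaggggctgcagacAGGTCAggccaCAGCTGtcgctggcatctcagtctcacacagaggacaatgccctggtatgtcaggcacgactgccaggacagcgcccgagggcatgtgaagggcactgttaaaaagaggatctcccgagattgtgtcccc
Myh7: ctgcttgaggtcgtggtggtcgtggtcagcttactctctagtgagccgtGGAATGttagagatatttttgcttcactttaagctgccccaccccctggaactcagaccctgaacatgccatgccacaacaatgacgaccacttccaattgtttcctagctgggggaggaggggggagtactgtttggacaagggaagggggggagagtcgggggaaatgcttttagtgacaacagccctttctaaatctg

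The words were MEF2 (CTAAAAATA, CTATTTTTA, CTATAAATA or CTATTTATA), ERR (TCAAGGTCA), a nuclear receptor core (AGGTCA), NFAT (AATGGAAA, and GGAAA, which is not capitalized), AP-1 (TGACTCA or TGAGTCA), the E-boxes CAGCTG and CACCTG, TEAD (GGAATG), sine oculis homeobox (TCAGGTTTC) and NUR77 (AAAGGTCA). AGGTCA lies within the ERR and NUR77 words, and GGAAA within AATGGAAA. Counting the start base as 0, the Myh7b run held a MEF2 word at -162 to -154 and an ERR word at -46 to -38, and the Tpm3 run held an ERR word at -230 to -222 and an AATGGAAA word at -198 to -191. The Myl2 run held AGGTCA and CAGCTG, and the Myh7 run held GGAATG. Of 32851 RefSeq promoter windows (250 bases before to 50 after a start), 1.6% held a MEF2 word, 0.423% an ERR word, 16.3% AGGTCA, 1.87% AATGGAAA, 16.3% CAGCTG, 20.2% CACCTG, 14.7% GGAATG, 61.3% GGAAA, 5.2% an AP-1 word, 0.429% TCAGGTTTC and 1.51% AAAGGTCA. A match is a description of the letters, not a binding site. In all, 115 such windows of 107 genes lay inside 98 members, and 2 of the 115 (1.74%) held a MEF2 word and 2 an ERR word.

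Slow contractile genes were the nearest gene of 7 members, and fast contractile genes of none. The 7 belonged to Myh7 (slow myosin heavy chain, 2 members), Myl2 (slow regulatory myosin light chain, 2), Myh7b (a slow-type myosin heavy chain, 1), Tpm3 (slow tropomyosin, 1) and Mybpc1 (slow myosin-binding protein C, 1). They made up 9.46% of the 74 merged regions nearest to a slow contractile gene, beside 2.08% over all merged regions. No slow contractile region (0 of 74) had the mirror pattern of EDL and Quad alone, whereas 7 of 54 fast contractile regions (13%) did, near Casq1, Myh4, Pvalb and Tpm1, beside 6.17% over all regions. Most contractile regions were outside both patterns. Of the 19 slow contractile genes nearest to a merged region, 5 had a member (26.3%, beside 6.3% over all nearest genes). When a call in 1 muscle of a pair was enough, the split was less clean. Of the slow contractile regions, 8 were called in EDL or Quad and neither Sol nor Dia, and 22 the other way. Of the fast ones, these counts were 19 and 2. Of the slow contractile regions, 31 were called in all 4 muscles, and of the fast ones 26.

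**Figure D1:**
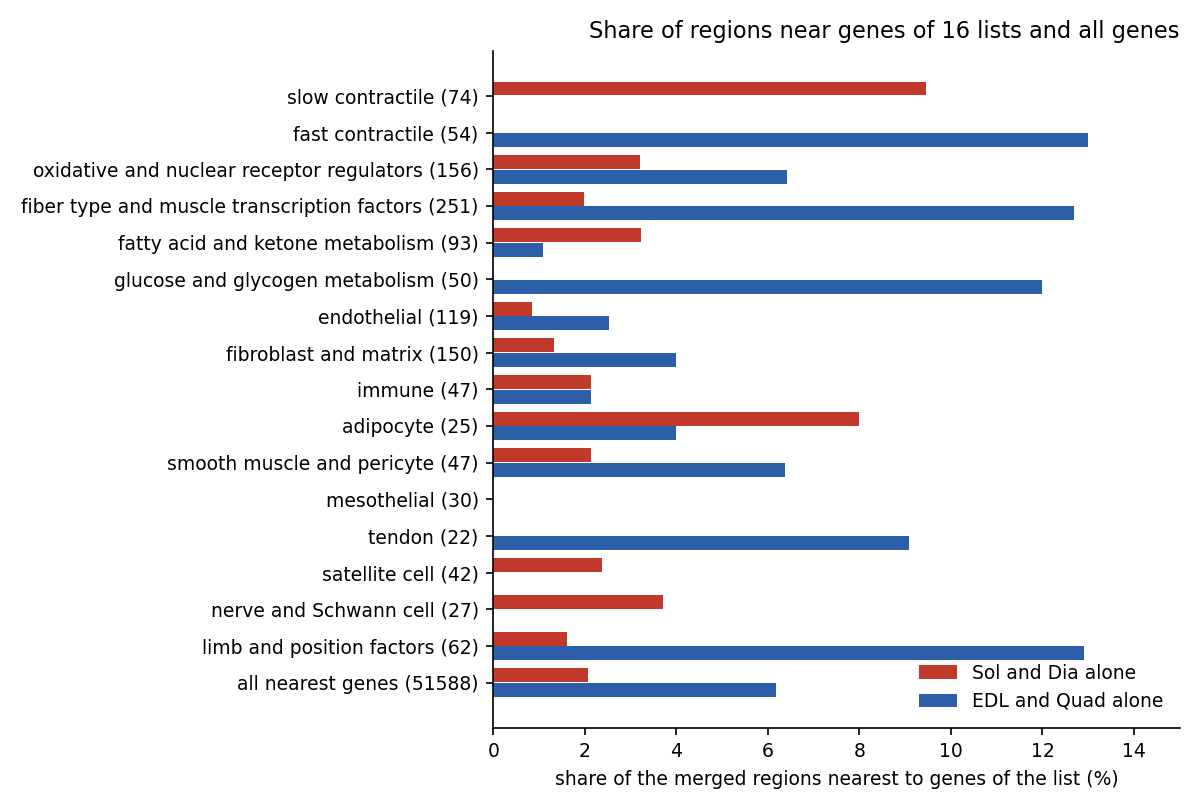
Share of the merged H3K27ac regions nearest to genes of each of 16 lists, and to any gene, that were called in Sol and Dia alone (red) or in EDL and Quad alone (blue), in percent, with the number of merged regions in parentheses. Slow contractile regions had 9.46% in red and none in blue, and fast contractile regions none in red and 13% in blue.

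At Myh7, 1 member (chr14:54991466-54999824) contained the start of the gene with exons of Myh7 and of the RefSeq locus Gm31251. H3K27ac there was 6.62 and 6.34 in the 2 Sol libraries against 3.27 in the Sol input, and 5.09 and 5.23 in the Dia libraries against 3.16 in the Dia input. These values are the deposited log2 tag levels of the muscle's widest peak per kb of its width, and a percentile gives the rank of such a value among all peaks of the same list. The Sol percentiles were 75.5 and 67.1 and the Dia percentiles 11.5 and 16.7. Each list was normalized by itself, so levels of Sol and Dia were not tested against each other. Both Sol libraries ranked the region higher within their list than both Dia libraries did within theirs.

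The second Myh7 member (chr14:55002072-55007046) lay upstream of the gene, with an exon of Gm31251. Its H3K27ac was 6.77 and 6.53 in Sol (input 3.74) and 5.19 and 5.33 in Dia (input 3.14). It overlapped a MED1 peak of Sol. MED1 is a subunit of the mediator complex that links enhancers to RNA polymerase.

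Both Myl2 members were adjacent. The first (chr5:122091832-122095395) held the RefSeq start whose upstream bases are shown above, and the second (chr5:122096689-122103659) held the start used in the authors' annotation, which classed it as promoter. The second had 6.63 and 6.34 in Sol (input 3.24) and 5.6 and 5.34 in Dia (input 3.24). The first had 6.54 and 6.02 in Sol (input 3.07) and 5.61 and 5.9 in Dia (input 3.43). Tpm3 (chr3:90067573-90077074, promoter class) spanned the start shown above. It had 6.32 and 6.23 in Sol (input 3.16) and 5.4 and 5.57 in Dia (input 3.15).

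Myh7b (chr2:155610406-155613516) included its gene's start and was annotated by the authors as intronic. Its H3K27ac was 6.28 and 6.13 in Sol (input 3.58) and 5.09 and 5.18 in Dia (input 3.18), with Sol percentiles of 64.3 and 59.0 and Dia percentiles of 11.5 and 15.4. Mybpc1 (chr10:88611634-88612675) was intergenic, with its Sol peak centered at -7002 bp from the start. It had 5.49 and 5.57 in Sol (input 3.89) and 5.18 and 5.81 in Dia (input 3.84). At each of the 7 regions both Sol percentiles lay above both Dia percentiles, by the least at Mybpc1, with 34.5 and 35.1 in Sol and 13.7 and 34.3 in Dia.

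**Figure D2:**
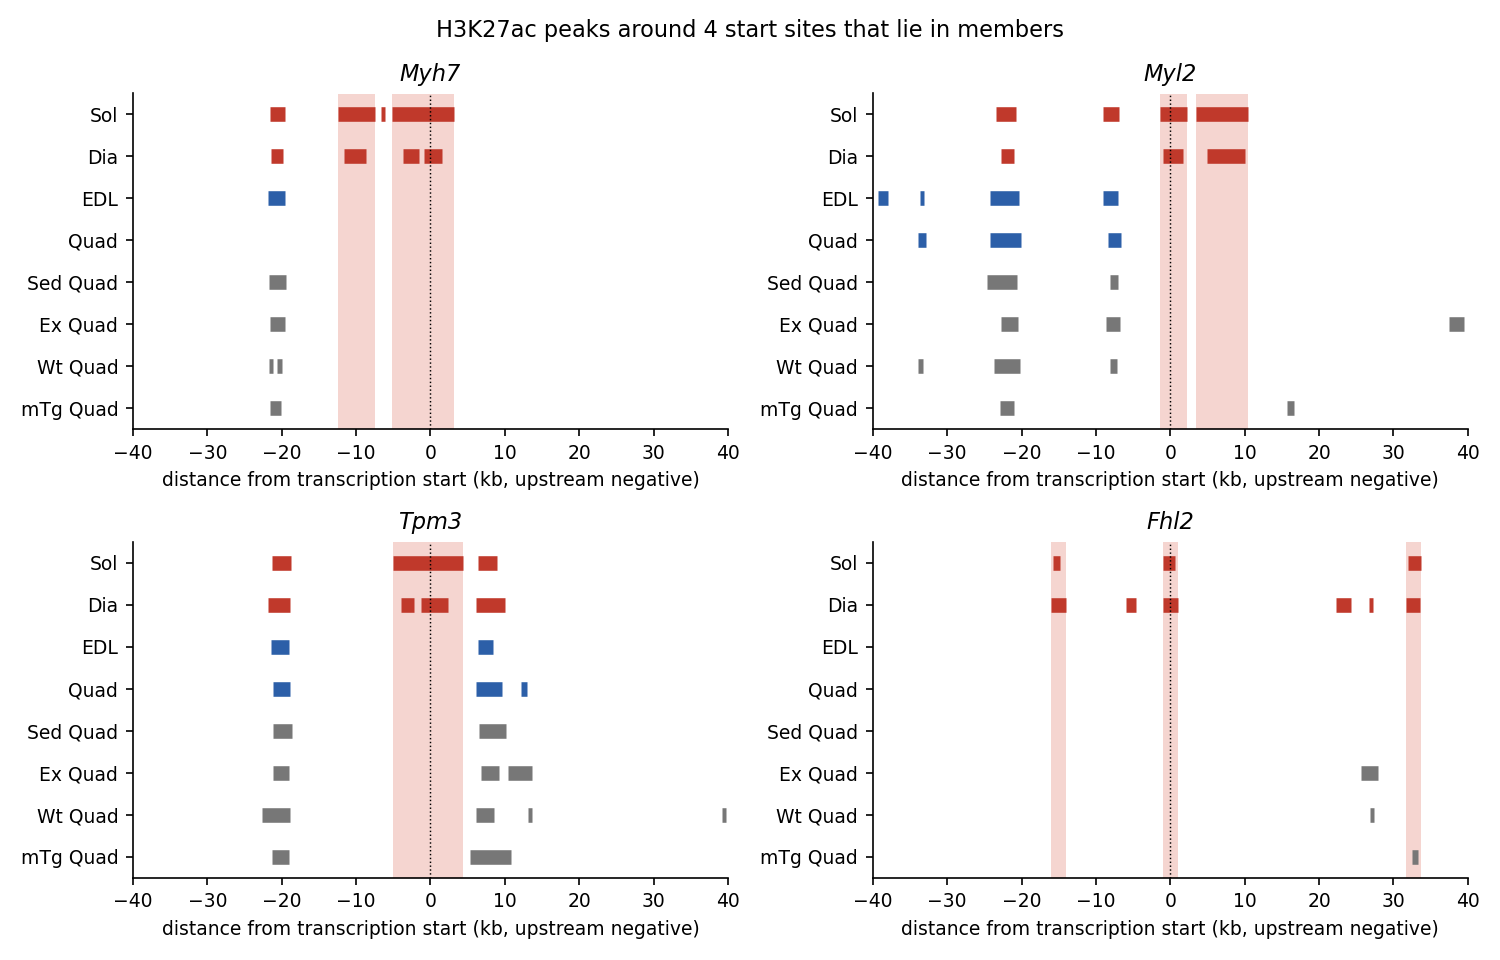
H3K27ac peaks (bars) of 8 lists by distance from a RefSeq start in kb, upstream negative, at Myh7, Myl2, Tpm3 and Fhl2, with members shaded, Sol and Dia in red, EDL and Quad in blue and the other quadriceps lists in gray. No bar of EDL, Quad, Sed, Ex or Wt falls in a shaded region, and mTg has a bar in 1, at Fhl2. For Myl2 the start is the upstream RefSeq start, and for Fhl2 the fourth member lies outside the window.

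None of the 7 slow contractile members overlapped an H3K27ac peak in any of the 4 further quadriceps lists (Sed, Ex, Wt and mTg), whereas 744 of all 1072 members (69.4%) overlapped at least 1 (17.4% of all merged regions overlapped none). H3K4me2 peaks were nonetheless called at 4 of the 7 in EDL and at 2 in Quad, beside 5 in Sol and 5 in Dia. Myh7b and the Myl2 member with 6.63 in Sol had an H3K4me2 peak in all 4 muscles. Myh7b also overlapped an ATAC-seq peak (transposase-accessible chromatin) of control quadriceps, as the only one of the 7. The Myl2 member at the upstream start had no H3K4me2 peak in any of the 4 muscles. Tpm3 and the Myh7 member at the start had H3K4me2 peaks in Sol and Dia and in neither EDL nor Quad.

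At Tpm3, H3K4me2 was 5.71 and 5.55 per kb in Sol and 4.37 and 3.72 in Dia. At Myh7b it was 5.97 and 6.07 in Sol, 5.9 and 5.96 in Dia, 6.63 and 6.53 in EDL and 5.69 and 5.77 in Quad. At Myh7b the H3K4me2 percentile was thus 49.2 and 51.6 in Sol and 63.9 and 62.6 in EDL, a muscle where no H3K27ac peak was called.

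Regulators of oxidative metabolism were nearest to 5 members (3.21% of the 156 merged regions of that list, beside 2.08% over all). The mirror pattern held 10 (6.41%, beside 6.17% over all), near Hif1a, Ppard, Rora and Rxrg. Esrrg, a nuclear receptor that drives mitochondrial and oxidative genes, had 3 members, all intronic and without exons. The member at chr1:187690817-187695053 had 5.54 and 4.99 in Sol (input 3.33) and 6.11 and 5.36 in Dia (input 4.03). The one at chr1:187948883-187952757 had 5.83 and 5.35 in Sol and 5.81 and 5.29 in Dia, and the one at chr1:187926305-187927426 had 4.71 and 5.21 in Sol and 4.62 and 4.41 in Dia. None of the 3 overlapped a peak of the 4 further quadriceps lists, and H3K4me2 was called in Sol at the last 2 and in no other of the 4 muscles.

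The member near Ppargc1a, which encodes the coactivator PGC1α of mitochondrial biogenesis, was intergenic at chr5:51439154-51440971 and 113859 bp from the start. H3K27ac was 4.96 and 4.96 in Sol (input 3.23, percentiles 15.4 and 13.2) and 6.44 and 6.99 in Dia (input 4.29, percentiles 55.2 and 71.8). Here the order of the within-list ranks was the opposite of that at Myh7, with both Dia libraries above both Sol libraries. It overlapped an H3K27ac peak in Wt and in mTg quadriceps, so its call did not set the transgenic quadriceps apart from their controls. An intronic member of Rora, a nuclear receptor gene, at chr9:69070389-69072711 had 5.12 and 5.41 in Sol and 5.53 and 5.5 in Dia, and overlapped a peak in all 4 quadriceps lists.

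Transcription factors of fiber type and muscle were nearest to 5 members, 1.99% of their 251 merged regions, and to 32 regions of the mirror pattern (12.7%). Prox1, a homeobox gene active in slow fibers, had 2 members. Its intronic member at chr1:190125334-190130517 had 5.93 and 5.85 in Sol (input 3.08) and 5.22 and 5.29 in Dia (input 3.36), and neither Prox1 member overlapped any of the 4 further quadriceps lists. Its upstream member (chr1:190174055-190176033, within Prox1os) had 5.65 and 5.36 in Sol and 5.94 and 6.01 in Dia. The members of Mef2a and Nfatc4, both from families of calcium-dependent muscle regulators, were called in Sed, Ex and Wt, and that of Six4, a homeobox factor of fast fibers, in mTg. The 12 genes of the list with mirror regions were Eya1, Eya4, Hdac4, Mef2a, Mef2c, Mef2d, Nfatc1, Nfatc2, Sox6, Tbx15, Tead1 and Tead4. Of these, only Mef2a also had a member.

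Enzymes and transporters of fatty acid and ketone metabolism were nearest to 3 members (3.23% of 93), namely Cpt2 and Hadh, which act in mitochondrial fatty acid oxidation, and Slc27a1, a fatty acid transporter. Glucose and glycogen genes had no member among 50 regions and 6 mirror regions. Among lists of other cell types, adipocyte genes had 2 members of 25 regions (Pparg and Slc7a10), fibroblast and matrix genes 2 of 150 (Dpt and Postn), and endothelial (Vwf, of 119), smooth muscle (Rgs5, of 47), immune (Runx1, of 47), satellite cell (Cdh15, of 42), nerve (Mbp, of 27) and limb position lists (Zic1, of 62) 1 each. Mesothelial (30 regions) and tendon genes (22) had none. The share over the cell type lists therefore ran from 0% to 8.0%, around the 2.08% of all merged regions.

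Members near leukocyte genes outside these lists were named after their values had been seen. They numbered 16, among them H2-Aa and Cd74 (antigen presentation), Cd53, Il2rg, Fcgr1 and Ctss. They were picked for having a member, and leukocyte genes without one were not counted, so 16 is no share. The immune list set beforehand stood at 2.13%, beside 2.08% over all regions. Of the 16, 14 overlapped an H3K27ac peak of Sed or Wt quadriceps (all members 54.3%, all merged regions 75.2%). A peak of any of the 4 further lists overlapped 15 (all members 69.4%, while 17.4% of all merged regions overlapped none). Their mean percentiles were low in Sol, from 1.23 at Il2rg to 48.3 at Cd302, and ran from 2.95 to 51.4 in Dia. The part of immune cells in the members was not tested.

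Across the 1072 members, H3K27ac was weak. The median percentile was 23.5 and 22.5 in the 2 Sol libraries and 24.2 and 21.4 in the 2 Dia libraries, and the median level per kb 5.2 and 5.24 in Sol (input 3.31) and 5.54 and 5.39 in Dia (input 3.56). All 1072 exceeded the input in both replicates of both muscles, by a median of 1.88 (log2) in Sol and 1.87 in Dia. The peaks were called against this input, so that excess follows from the choice. The SD of the difference between replicates over members was 0.36 in Sol and 0.42 in Dia. Only 5 members in Sol and 3 in Dia had a mean percentile over 75, and 1 had it in both. In the lowest 25 percentiles lay 568 in Sol (53.0%), 580 in Dia (54.1%) and 414 in both (38.6%). Over the 1072 regions Pearson's r between the Sol and Dia percentiles was 0.56, below the 0.82 and 0.79 between replicates of Sol and of Dia. Regions are not replicates, and all 4 values share the peak selection.

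**Figure D3:**
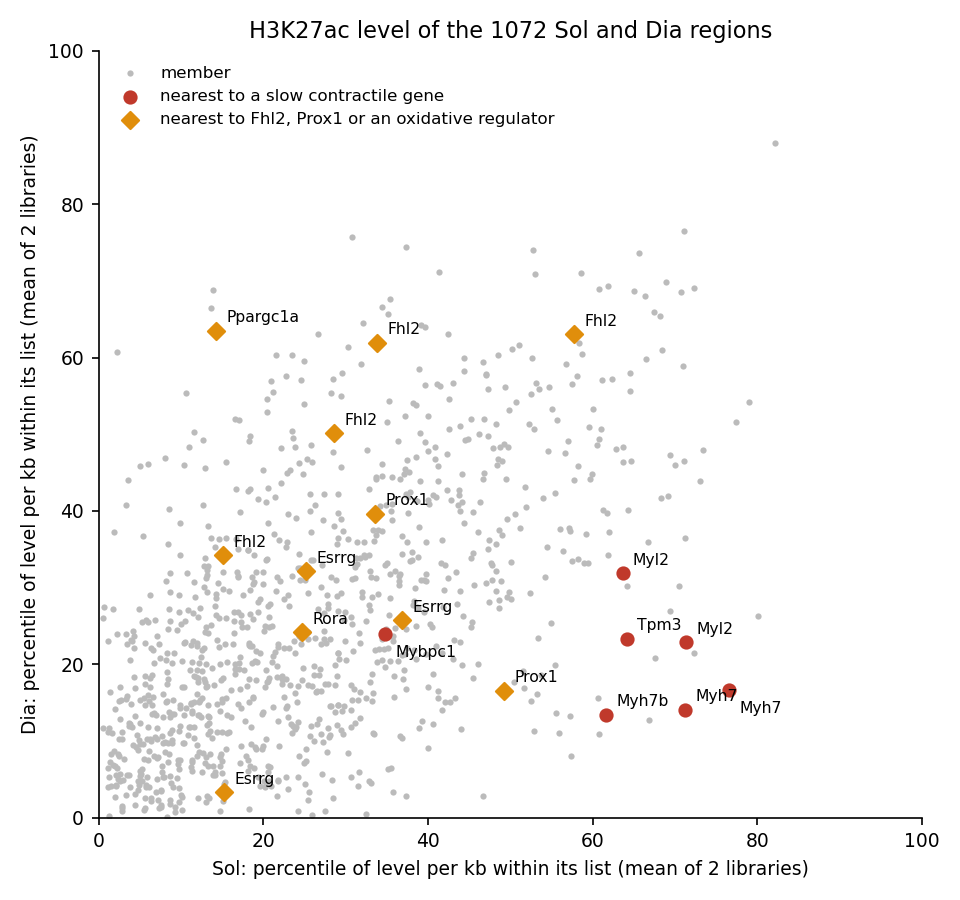
Percentile of H3K27ac level per kb within the Sol list (x axis) and within the Dia list (y axis), each the mean of 2 libraries, for the 1072 members (gray), with slow contractile members in red and those of Fhl2, Prox1 and the oxidative regulators in orange. Most points lie at the lower left, 6 of the 7 red points lie at high Sol and low Dia ranks, and Ppargc1a lies at a low Sol and high Dia rank.

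The highest level belonged to an intergenic member nearest to C230035I16Rik (chr13:23437003-23438084), with percentiles of 86.7 and 77.7 in Sol and 90.4 and 85.4 in Dia. It had H3K4me2 in all 4 muscles, MED1 peaks in Dia, EDL and Quad and an ATAC peak in quadriceps. The next by level were Mcm5, Mab21l3, Ednra, Rreb1, Gxylt1, Svbp, Nisch, Clasp1 and Kif1bp, and their replicate percentiles all fell between 57.9 and 84.6. Of these 10, 7 overlapped an H3K27ac peak of Sed, Ex or Wt quadriceps. The exceptions were Mcm5 and Ednra, which overlapped none of the 4 further lists, and Rreb1, which overlapped mTg alone.

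The members were spread over 971 nearest genes, of which 883 had 1 member, 77 had 2, 9 had 3 and 2 had 4. One with 4 was Fhl2, a LIM-domain protein of heart and muscle. Its members at chr1:43162985-43165034 and chr1:43195754-43197775 were of promoter class, one at chr1:43153304-43155576 was intronic, and one at chr1:43210769-43212730 was intergenic. The promoter member at 43162985 had 6.4 and 5.85 in Sol (input 3.57) and 6.78 and 6.58 in Dia (input 4.68). The one at 43195754 had 5.57 and 5.17 in Sol and 6.12 and 6.47 in Dia. The former overlapped a peak of mTg quadriceps, as the only one of the 4 Fhl2 members with any of the 4 further lists, and no EDL or Quad peak lay within 6085 bp of any of them. The other gene with 4 was 9430078K24Rik, where 3 of the members lay in introns of Rad51b.

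Genes with 3 members that were named by rank included A330049N07Rik, Arhgef3 (a guanine nucleotide exchange factor), D6Ertd527e, Esrrg and Fgf7 (a growth factor of mesenchymal cells), while Gna12, Mgst2 and Mir30d tied with them and were left out by alphabetical order. None of the Esrrg members overlapped the 4 further quadriceps lists, whereas every member of Arhgef3 and Fgf7 overlapped at least 1. A MEF2 word lay in 1 member of each of Esrrg and Fgf7, and 99 bases around it are shown on the plus strand of GRCm38.p6, at chr1:187926809-187926907 and chr2:126080315-126080413 in that order, because the word shares given next rest on such matches. Capitals mark the words as above.
Esrrg: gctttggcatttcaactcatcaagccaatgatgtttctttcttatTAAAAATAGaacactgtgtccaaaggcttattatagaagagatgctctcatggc
Fgf7: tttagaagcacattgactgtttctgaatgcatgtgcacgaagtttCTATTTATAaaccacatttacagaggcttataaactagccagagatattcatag

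Over windows of 500 bp centered on the regions, 69 members (6.44%) held a MEF2 word, beside 6.66% of the mirror regions and 4.87% of all merged regions. ERR words were in 25 members (2.33%, Wilson 95% interval 1.58 to 3.42), 1.51% of the mirror regions and 1.52% of all. With windows of 1000 bp the members' 3.26% (2.36 to 4.51) did not lie clear of the mirror regions' 3.05% or the 2.97% of all. ERR words were in 7.23% of the 83 members left when both peaks needed an adjusted p under 0.001 in the authors' call. AATGGAAA was in 69 members (6.44%, 5.12 to 8.07), 3.9% of the mirror regions and 3.78% of all, so that its interval lay above both shares. With windows of 1000 bp AATGGAAA was in 10.4% of members (8.76 to 12.4), 7.42% of the mirror regions and 7.49% of all. The AP-1 words were in 13.4% of members (11.5 to 15.6), 11.4% of the mirror regions and 10.8% of all, but in 8.43% of the 83 members left when both peaks needed an adjusted p under 0.001 in the authors' call, and with windows of 1000 bp the members' 22.5% (20.1 to 25.1) did not lie clear of the mirror regions' 20.9%. AGGTCA (33.9% of members, 35.2% of mirror regions, 30.9% of all), GGAAA (84.3%, 81.9% and 82.3%), CAGCTG (31.5%, 32.9% and 28.9%), CACCTG (29.9%, 28.9% and 29.0%), GGAATG (24.5%, 26% and 25.4%), TCAGGTTTC (1.03%, 0.943% and 0.818%) and the NUR77 word (3.54%, 5.94% and 3.31%) completed the search. GC content of the windows was alike, with medians of 47.4%, 47.0% and 48%.

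By genomic class, 59 members (5.5%, 4.29 to 7.03) were promoters, from 1 kb upstream to 100 bp downstream of a start in the authors' annotation, beside 3.43% of the mirror regions and 9.62% of all. Intragenic members numbered 586 (54.7%), beside 62.7% and 56.9%, and intergenic members 427 (39.8%), beside 33.9% and 33.5%. Median width was 1740 bp for members, 1724 bp for mirror regions and 1858 bp for all. The widest were near Dkk2 (12669 bp), Tpm3 (9502 bp), Myh7 (8359 bp), Il16 (7221 bp) and Myl2 (6971 bp). Members lay apart from each other: 150 (14.0%) had another member within 50 kb, whereas 1137 mirror regions (35.7%) had another mirror region that near, of a set about 3 times as large. The nearest EDL or Quad peak was a median of 6868 bp away, within 1 kb of 91 members (8.49%) and within 10 kb of 640 (59.7%). Members nearest to being lost were those of Ago2, Raly and Syne3, with an EDL or Quad peak 14, 31 and 39 bp away. Regions nearest to being members were those of Xbp1, A730004F24Rik and Msi2, where a Quad peak overlapped the Sol or Dia peak by 7, 7 and 31 bp.

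H3K4me2 was not used in the choice of members. H3K4me2 peaks of Sol overlapped 461 members (43.0%, interval 40.1 to 46.0) beside 48.6% of all merged regions, and those of Dia 405 (37.8%, 34.9 to 40.7) beside 44.6%. For EDL the count was 321 (29.9%, 27.3 to 32.8) beside 55.8%, and for Quad 310 (28.9%, 26.3 to 31.7) beside 56%. The members were thus below the background in all 4 muscles, and further below it in EDL and Quad. The difference in Sol and Dia depended on the set: among the 83 members with stricter peaks Sol H3K4me2 was at 55.4%, beside 51.7% of the regions merged from those peaks, and among intergenic members it was at 33.7% in Sol and 30.7% in Dia, beside 35.2% and 30.6% of all intergenic regions. In the mirror regions the order was the reverse, with 22% in Sol and 20.2% in Dia against 53.5% in EDL and 56.0% in Quad. H3K4me2 of Sol or Dia without that of EDL or Quad was found at 197 members (18.4%, 16.2 to 20.8), 28 mirror regions (0.88%) and 4.44% of all. The opposite pattern was found at 45 members (4.2%), 1292 mirror regions (40.6%) and 14.6% of all. No H3K4me2 peak of any of the 4 muscles overlapped 474 members (44.2%), beside 30.9% of all merged regions.

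Members with H3K4me2 in both Sol and Dia (313, 29.2%) had higher median H3K27ac percentiles, 30.6 in each muscle, than the 474 without H3K4me2 (20.1 in Sol and 18.6 in Dia). Of the 59 promoter members, 44 (74.6%) had H3K4me2 in Sol, 42 (71.2%) in Dia, 38 (64.4%) in EDL and 36 (61.0%) in Quad. Over all 4963 promoter regions the share was 95.3% in Sol and 95.6% in Quad.

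Accessible chromatin of quadriceps, from 1 list pooled over the control libraries, overlapped 275 members (25.7%, 23.1 to 28.4), 54.4% of the mirror regions and 54.5% of all. Neither an ATAC peak of quadriceps nor H3K4me2 of EDL or Quad was found at 558 members (52.1%), beside 26.1% of all merged regions. MED1 peaks were rare at members in every muscle, at 17 in Sol (1.59%, all regions 3.93%), 5 in Dia (0.466%, all 2.87%), 2 in EDL (0.187%, all 0.818%) and 6 in Quad (0.56%, all 3.27%), and no member had MED1 in both Sol and Dia. NFAT peaks of Sol overlapped 32 members (2.99%, all 3.3%) and those of Quad 0 (all 0.0504%). The NFAT peaks cannot be read as a result here, since 4.45% of the 39661 NFAT peaks of Sol lay in any merged region, which together cover 5.07% of the genome, whereas 52.2% of the MED1 peaks of Sol did. The processing notes name mm9 beside mm10 for the MED1 and NFAT libraries. No peak of these lists passed a chromosome end of mm10, and the part of the build in the placement of the NFAT peaks was not tested.

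**Figure D4:**
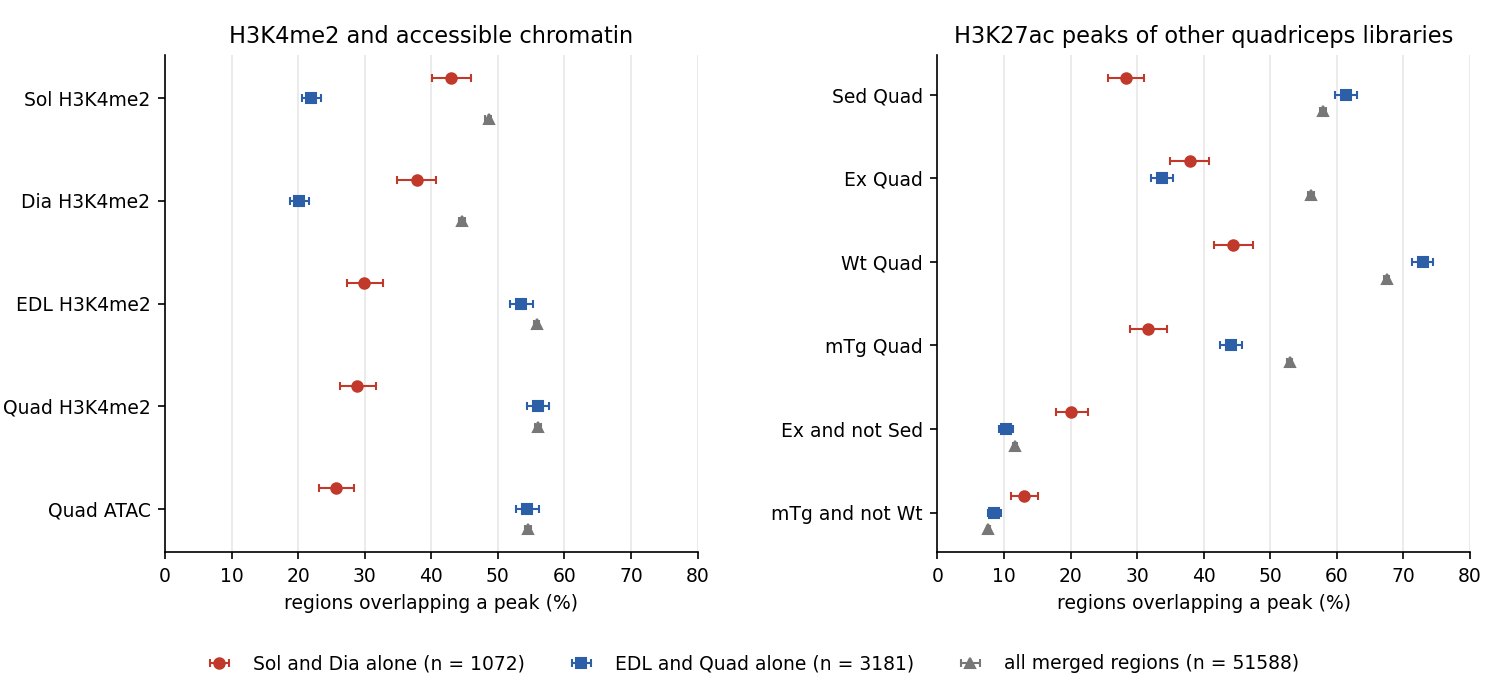
Share of members (red circles), mirror regions of EDL and Quad alone (blue squares) and all merged regions (gray triangles) that overlapped a peak of each list, in percent, with Wilson 95% intervals over regions. Members lie nearest to all regions for H3K4me2 of Sol and Dia, far below them for EDL, Quad and ATAC, and above both other sets for a peak in Ex and not Sed and in mTg and not Wt. Such a gain needs a region without the control peak, which members more often were, so those shares do not compare rates of gain.

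The next question was whether the members were acetylated in quadriceps of exercised or transgenic mice, both of which shift muscle toward oxidative metabolism. An H3K27ac peak was called at 303 members in Sed (28.3%, all merged regions 57.9%) and at 406 in Ex (37.9%, all 56.1%). It was called at 476 in Wt (44.4%, all 67.5%) and at 339 in mTg (31.6%, all 52.9%). Members were called more often in Ex than in Sed and less often in mTg than in Wt, but among the 83 members with stricter peaks the second order turned, with 33.7% in Wt and 38.6% in mTg. The lists differ in length, with 34031 peaks in Sed, 34572 in Ex, 49010 in Wt and 36169 in mTg. A peak in Ex and not in Sed was found at 215 members (20.1%, 17.8 to 22.6), 10.3% of the mirror regions and 11.6% of all, and at 13.3% of the 83. A peak in mTg and not in Wt was found at 139 members (13%), 8.55% of the mirror regions and 7.63% of all, and at 21.7% of the 83. Such a gain needs a region without the control peak, and members had fewer control peaks than either comparison set. The larger shares are therefore not read as a higher rate of gain. Counted over regions without the Sed peak, members gained a peak in Ex about as often as mirror regions and all regions. Over regions without the Wt peak, members gained a peak in mTg about as often as all regions and less often than mirror regions.

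The losses were counted in the same way. A peak in Sed and not in Ex was found at 112 members (10.4%), 38% of the mirror regions and 13.4% of all. A peak in Wt and not in mTg was found at 276 members (25.7%, 23.2 to 28.4), 37.4% of the mirror regions and 22.2% of all. Only a region with the control peak can lose it. A Sed peak was lost in Ex at 112 of 303 members, 1208 of 1952 mirror regions and 6927 of all 29893 regions with one. A Wt peak was lost in mTg at 276 of 476 members, 1189 of 2319 mirror regions and 11472 of all 34826 regions with one. Counted so, members lost the peak call more often than all regions in both comparisons. In each Sed and Wt library, however, the median member peak ranked below the middle of its list and below the median mirror peak. The part of such weak peaks in the lost calls was not tested. The losses are therefore not read as a greater fall in H3K27ac level. A peak in both Ex and mTg and in neither control was found at 21 members (1.96%, 1.28 to 2.98), beside 1.09% of all regions. This needs a region without a Sed or Wt peak, and 54.3% of members but 75.2% of all regions had one. The share is therefore not read as an excess. No quadriceps list held 328 members (30.6%), beside 17.4% of all merged regions. The 328 members had median percentiles of 26.4 in Sol and 21.6 in Dia, beside the 22.6 and 24.1 of the other 744. The 215 members with a peak in Ex and not Sed were weaker, at 14.9 in Sol and 18.6 in Dia. A call is a threshold on a list, and each list was called once over both replicates, so these counts have no replicate error.

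The authors' lists of regions that differ between groups give levels in every library. Hyperacetylated regions of mTg against Wt overlapped 48 members (4.48%, 3.39 to 5.89), 1.95% of the mirror regions and 2.71% of all merged regions. Hypoacetylated regions of mTg overlapped 4 members (0.373%), 7.98% of the mirror regions and 1.54% of all. For Ex against Sed, 13 members were hyperacetylated (1.21%, all 0.521%) and 1 was hypoacetylated (0.0933%, all 4.28%, mirror regions 14.2%). Members were chosen for lacking a Quad peak and mirror regions for having one, which favors rises in members and falls in mirror regions. These shares are therefore not read as a direction of change. None of the slow contractile, oxidative regulator or fiber type factor members was in any of the 4 lists. These were only 7, 5 and 5 members, and no list held more than 4.48% of all members, so this is not read as a result. Those lists were selected by the authors for a difference, and limma on each whole list called 100% of the 1828 hyperacetylated mTg regions and 100% of the 844 hypoacetylated ones at an adjusted p under 0.05, and 99.7% of the 382 and 99.7% of the 2280 Ex regions. All 48, 4, 13 and 1 members were called in their list's direction, which is no independent evidence.

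Among the 48 members higher in mTg the median difference was 0.72 on the log2 scale, from 0.4 to 1.48, beside 0.74 over the whole list. The largest was an intronic member of Hsbp1l1, with 5.58 and 5.71 in Wt and 7.07 and 7.18 in mTg, a rise of 1.48 ± 0.12 (SE, limma adjusted p = 5.94e-10, n = 2). Intu, an effector of cilium formation, followed with 5.4 and 5.64 in Wt and 7 and 6.93 in mTg (1.45 ± 0.13, limma adjusted p = 1e-09). The next were Phactr1 (1.43), Scpep1os (1.38), Rreb1 (1.37), Galnt1 (1.17), Mir582 (1.15) and 4930578M01Rik (1.11). In each of these 8 both mTg libraries exceeded both Wt libraries. The intergenic Rreb1 member (chr13:37761144-37763153) was also among the 10 of highest level in Sol and Dia, with 6.1 and 6.53 in Sol and 6.67 and 7.51 in Dia.

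Further members in this list were named after their values were seen, for the role of the gene. Pparg, the nuclear receptor of fat cell formation, had an intronic member with 5.75 and 6 in Wt and 6.9 and 7.02 in mTg (1.08 ± 0.13). Slc25a13, a mitochondrial aspartate and glutamate carrier, had 2 members that rose by 1.08 and 0.59. The intronic Slc27a1 member had 5.12 and 5.22 in Wt and 6.06 and 5.9 in mTg (0.81 ± 0.13). Mtor, a kinase of growth control, rose by 1.02, Angpt1, a vascular growth factor, by 1.01, and the promoter member of Bdnf, a neurotrophin, by 0.83. The 3 genes with promoter members in the list were Bdnf, Kctd1 and Tnfrsf11b. The Fgf7 member that carries the MEF2 word shown above rose by 0.48, from 4.47 and 4.76 in Wt to 5.08 and 5.11 in mTg.

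**Figure D5:**
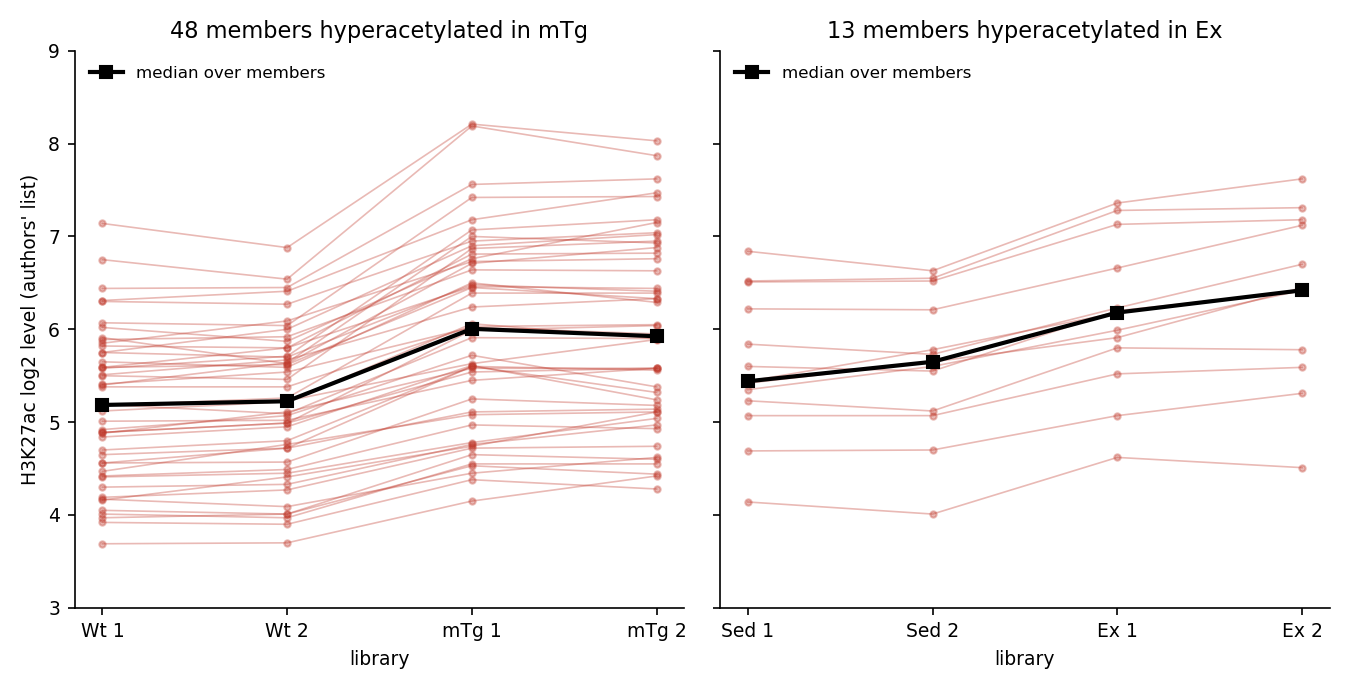
H3K27ac log2 level, as deposited in the lists of hyperacetylated regions, of the 48 members in Wt and mTg quadriceps (left) and the 13 members in Sed and Ex quadriceps (right), with a thin line per region across the 2 libraries of each group and the median over members in black. All 48 and all 13 are higher in both treated libraries than in both controls, as the lists select.

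Among the 13 members higher in Ex the median difference was 0.67, from 0.48 to 0.76, beside 0.59 over the list. The largest was an intergenic member of Fndc3b, with 6.52 and 6.55 in Sed and 7.28 and 7.31 in Ex (0.76 ± 0.16, limma adjusted p = 0.000934, n = 2). Others named by size were Col8a1, a collagen gene (0.73), Scfd2 (0.73), 2 members of Cenpf (0.68 and 0.64), Hlcs, the enzyme that attaches biotin to carboxylases (0.68), and Sh3glb1 (0.67). Without Sed replicate 1, limma called 0 of the 382 regions and so 0 of the 13 members, while their median difference was 0.64, and without Sed replicate 2 it called 9 of the 13. Jam3, which encodes an adhesion molecule of cell junctions, had a member hyperacetylated in both experiments, from 4.14 and 4.01 in Sed to 4.62 and 4.51 in Ex, and from 3.92 and 3.9 in Wt to 4.38 and 4.28 in mTg.

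The members that fell were few. Rilpl1 fell by 0.56 in Ex, from 5.89 and 5.5 in Sed to 5.31 and 4.96 (limma adjusted p = 0.0098), and its call was lost without Sed replicate 1 or Ex replicate 2. In mTg, all 4 were named after their values were seen, and the differences were -0.51 at Pcsk6, -0.49 at Qpct, -0.48 at Kcnip1 and -0.44 at 4930515L03Rik. With each library centered on its median over the list, which takes the common shift of a list away, the median difference of the members was 0.05 in the hyperacetylated Ex list and -0.09 in the hyperacetylated mTg list, where 6 of 48 were then called.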

How the data were processed

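Chromatin of mouse skeletal muscle was measured by ChIP-seq of H3K27ac, H3K4me2, MED1 and NFAT and by ATAC-seq. The authors aligned reads with Bowtie (version 1.2 in the processing notes) to mm10 and called histone peaks with HOMER and DESeq2 over both replicates of a group against input, and ATAC reads of the control libraries, pooled, were aligned with Bowtie2 per the labels. The deposited histone levels are log2 values normalized by the authors within each list, taken here to be DESeq2's regularized logarithm. The deposited adjusted p-values and log2 folds over input were used only as filters in alternatives. Further columns of the differential lists hold the authors' folds and p-values and were not used. The peak score deposited by the authors, taken as tags per scaled library, ranked peaks in 1 alternative. The deposited signal of the ATAC list was not used beyond its intervals.

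Groups came from the sample titles. Lists were merged with bedtools 2.31.1. Class and nearest gene are those of the widest peak in a region. Percentiles rank the log2 level per kb within a list. Words were read with pysam 0.24.0 from GRCm38.p6, and no deposited H3K27ac peak passed the end of its chromosome. Within each differential list, limma 3.58.1 (R 4.3.3, two-sided, Benjamini-Hochberg over the list) was fitted, after a check on simulated data. Nothing in the labels says that replicates came from separate cohorts, so p-values measure the spread between these libraries. Wilson intervals cover counting error over regions, which are not replicates of animals.

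The members, gene lists and words were chosen with earlier results of these data known. Named genes were those of the contractile, oxidative and factor lists with a member, the 10 members of highest level, the 8 genes with most members (cut alphabetically through a tie at 3 members), the 8 largest differences in the hyperacetylated lists, the member of the hypoacetylated Ex list, and 3 regions on each side of the overlap threshold. Members with MED1 in both Sol and Dia were to be named, and there were none. Some members that this rule names are not reported here.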

Additional observations from a re-analysis of the deposited data

How the results depend on the processing

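Of 1072 members, 83 were left when Sol and Dia peaks needed an adjusted p under 0.001, 676 when they needed 4-fold over input, and 981 without an EDL or Quad peak within 1 kb. Cutting each list to its 33106 top-scoring peaks gave another set of 1392 regions, of which 1013 overlapped a member. Leaving out members with a Sed or Wt peak, an alternative chosen after seeing the data, left 490. Among the 83 the intergenic share was 51.8%, H3K4me2 of Sol 55.4%, of Dia 45.8% and of EDL 22.9%, peaks of Sed 19.3%, Ex 30.1%, Wt 33.7%, mTg 38.6%, Ex and not Sed 13.3% and mTg and not Wt 21.7%, hyperacetylated mTg regions 7.23%, hypoacetylated Ex and mTg regions 0.0% each, MED1 of Sol 4.82%, Dia 1.2%, EDL 1.2% and Quad 2.41%, NFAT of Sol 6.02%, ATAC 30.1%, and MEF2 words 13.3%. In that subset the share with a peak in Ex and not Sed was smaller, that in mTg and not Wt larger, and mTg stood above Wt. Among the 490 the intergenic share was 44.1%, H3K4me2 of Sol 35.1%, Dia 30.2%, EDL 20% and Quad 16.7%, hypoacetylated Ex and mTg regions 0.0% each, MED1 of Quad 0.204%, ATAC 14.5% and MEF2 words 9.18%. The equal list size put Ex peaks at 41.4%, and windows of 1000 bp put MEF2 words at 11.2%. An overlap of 50% of either interval kept the shares of H3K4me2 and differential regions within their 95% intervals.

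With each library centered on its list median, 0 members of the hyperacetylated Ex, 0 of the hypoacetylated Ex, 6 of the hyperacetylated mTg and 0 of the hypoacetylated mTg list were called, and their median differences were 0.05, 0.22, -0.09 and 0.18. The last 3 reversed by the construction of this setting, which removes the shift the lists were selected for. Leaving out 1 library at a time gave 0 to 13, 0 to 1, 47 to 48 and 4 called members in the same order, with none called without Sed replicate 1 (both Ex lists) or Ex replicate 2 (hypoacetylated Ex list), and 9 of 13 without Sed replicate 2, when 205 of the 382 regions were called. A replicate block called 13, 1, 48 and 4, changing no call among members. The labels do not say that a number marks a shared litter or day, and deviations of same-numbered libraries correlated at 0.14, 0.11, -0.04 and -0.24, which with 2 pairs leaves pairing undecided.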
